A study of Mus musculus with 16 samples.

Results

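The interaction of dish surface and growth factor was measured in LPS treated bone marrow derived macrophages (BMDMs), to find genes whose dish effect after LPS differed or reversed between GM-CSF and M-CSF cultures. The comparison was the log2 difference between noTC and TC dishes in M-BMDMs minus the same difference in GM-BMDMs, named the interaction. It used 8 of the 16 RNA-seq libraries of the study, in 4 groups of 2. All were bone marrow cells of 8-week-old C57BL/6J mice that were kept for 7 days with GM-CSF (GM) or M-CSF (M) on tissue culture treated (TC) or untreated (noTC) plastic dishes and then given LPS for 3 h, which gives GM-TC-LPS, GM-noTC-LPS, M-TC-LPS and M-noTC-LPS. A positive interaction means that noTC raised a gene more, or lowered it less, in M than in GM. A total of 11864 of the 22287 genes in the table passed the expression filter. GM and M cultures were also seeded at different densities per the methods of the study, so growth factor and density cannot be told apart.

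GM-CSF and M-CSF signal through different receptors and drive bone marrow precursors to macrophages of different character. GM-CSF cultures hold cells rich in MHC class II and CD11c, whereas M-CSF cultures hold cells rich in scavenger receptors and complement C1q. TC plastic is treated to make its surface hydrophilic so that cells attach and spread, and noTC plastic is not. LPS is sensed by TLR4, which switches on NF-kB and interferon regulatory factors and with them cytokines, chemokines and interferon stimulated genes.

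The 8 libraries held between 22129709 and 27820352 counts, so 3 counts, taken here as the floor, lay between 0.108 and 0.136 counts scaled to library size (CPM). Levels below are TMM-scaled CPM, except that marker sums, single cell type markers, untreated levels and percents of a mean level are scaled by library size alone. They compare libraries for a gene, not genes with each other. All 9 macrophage markers passed the filter, with summed levels of 39100 to 40900 CPM in GM, 27000 and 26100 CPM in M-TC-LPS and 22200 and 23100 CPM in M-noTC-LPS. Most of this sum was Lyz2, at 16700 and 15900 CPM in M-TC-LPS and 12900 and 13700 CPM in M-noTC-LPS. In M, Itgam was higher on noTC, at 757 and 745 CPM on TC and 962 and 951 on noTC. Cd68 overlapped between the dishes in M, at 1060 and 941 CPM against 1090 and 1000. Of these 9 genes, 7 had a negative and 0 a positive interaction by the test described next, and the part of this shift in other negative interactions was not tested. In bulk samples, fewer cells of a type and less RNA per cell cannot be told apart.

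The interaction was positive for 591 genes (4.98% of those tested) and negative for 900 genes (7.59%) at a BH-adjusted p under 0.05 in edgeR's quasi-likelihood test. Most of these genes moved with the dish in M. Among the positive genes, 472 were higher on noTC in M without passing the test in GM, 20 were higher on noTC in both and 22 were higher in M and lower in GM. Among the negative genes, 731 were lower on noTC in M alone, 53 were lower in M and higher in GM, and 54 were higher on noTC in GM alone. The dish effect itself passed the test in M for 1457 genes that were higher (12.3%) and 1580 that were lower on noTC (13.3%), and in GM for 298 (2.51%) and 131 genes (1.1%). The median size of the dish effect over all genes was 0.096 on the log2 scale in GM and 0.18 in M. The interaction was modest for most called genes, with a median size of 0.45, and it exceeded 1 for 83 positive and 96 negative genes. The share of called genes that were positive was 39.6% with TMM scaling, 31.6% with DESeq2 size factors and 65.1% with library size alone, so the balance of the directions rests on the scaling. The 4 pairwise dish effects of the libraries did not overlap between the growth factors in 4672 genes (39.4% of those tested). Without GM-TC-LPS replicate 1 the counts were 343 positive and 569 negative, and without GM-TC-LPS replicate 2 the positive count was 381. The GM dish counts ranged from 114 to 198 higher and 34 to 80 lower when any of the 4 GM libraries was left out, and the M dish counts were 901 and 977 without M-noTC-LPS replicate 1.

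**Figure D1:**
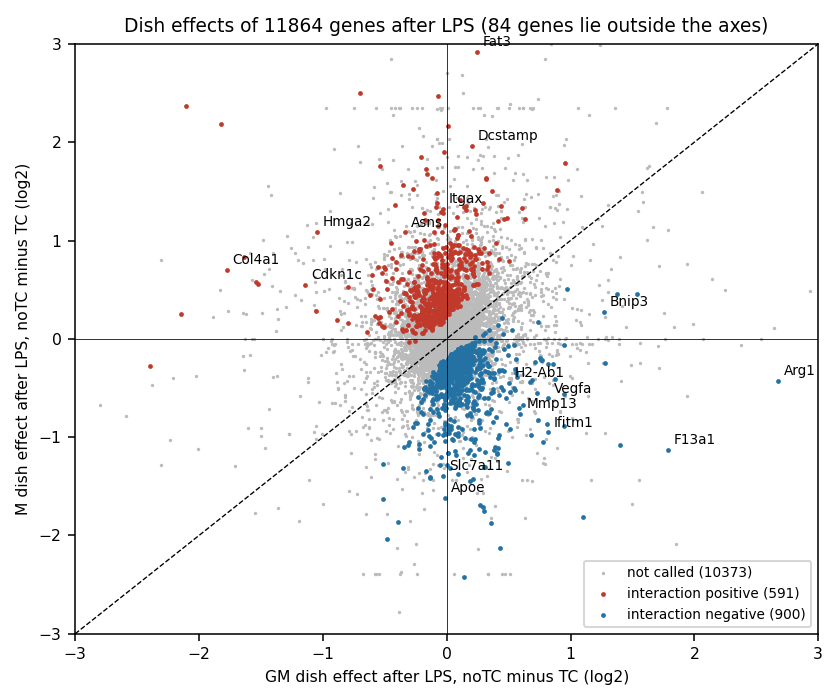
Log2 dish effect after LPS (noTC minus TC) in GM on the horizontal axis and in M on the vertical axis, 1 point for each of 11864 tested genes. Red points are the 591 genes with a positive and blue points the 900 genes with a negative interaction, grey points did not pass, the dashed line marks equal effects, and 84 genes lie outside the axes. The coloured points spread further along the M axis than along the GM axis, and Hmga2, Col4a1 and Cdkn1c in the upper left and F13a1, Mmp13 and Vegfa in the lower right had opposite dish effects.

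A reversal was counted where the interaction passed the adjusted threshold and both dish effects had an unadjusted p under 0.05 and opposite signs. There were 301 such genes (2.54% of those tested). Of these, 197 were lower on noTC in M and higher in GM, and 104 were higher on noTC in M and lower in GM. Both dish effects also passed the adjusted threshold in 53 and 22 of them. The total was 181 without GM-TC-LPS replicate 1. Mmp13, a collagenase, was measured at 493 and 481 CPM on TC and 742 and 729.8 on noTC with GM-CSF, and at 1168 and 1284 on TC and 698 and 742 on noTC with M-CSF. Its TC and noTC libraries did not overlap in either growth factor, with the higher level on noTC in GM and on TC in M. This gave a log2 dish effect of 0.59 in GM and -0.77 in M, and an interaction of -1.36 ± 0.07 (SE, adjusted p = 1.03e-11).

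F13a1, which encodes the A subunit of coagulation factor XIII, was at 5.51 and 8.21 CPM on TC and 23.7 and 23.9 on noTC with GM-CSF, and at 2.94 and 2.49 on TC and 1.20 and 1.28 on noTC with M-CSF. The libraries were again separated by dish in opposite directions. The test gave a log2 dish effect of 1.78 in GM and -1.13 in M, and an interaction of -2.92 ± 0.28 (SE, adjusted p = 1.31e-07). Vegfa, the vascular endothelial growth factor, was at 6.60 and 7.88 CPM on TC and 14.4 and 11.3 on noTC with GM-CSF, and at 14.4 and 11.6 on TC and 7.78 and 9.32 on noTC with M-CSF, so that noTC brought the GM level close to that of M-TC-LPS while the M level dropped. The values amount to a log2 dish effect of 0.82 in GM and -0.61 in M, and an interaction of -1.43 ± 0.20 (SE, adjusted p = 2.41e-05). Ifitm1, an interferon induced membrane protein gene, was present at 37.3 and 45.0 CPM on TC and 80.4 and 64.8 on noTC with GM-CSF, and at 3.33 and 2.03 on TC and 1.41 and 1.41 on noTC with M-CSF. Its dish effects were 0.82 in GM and -0.95 in M, without overlap of the libraries. Fcrls, an Fc receptor-like scavenger receptor gene, was mainly an M gene, at 7.01 and 8.81 CPM on TC and 13.7 and 12.9 on noTC with GM-CSF, and at 37.2 and 37.6 on TC and 20.2 and 22.2 on noTC with M-CSF. It rose on noTC in GM and fell in M, and the interaction was -1.56 ± 0.14 (SE, adjusted p = 5.07e-08). Zfp366, a zinc finger transcription factor gene, had an interaction of -1.83 ± 0.30 (SE, adjusted p = 0.000148) with dish effects of 0.95 in GM and -0.89 in M.

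The opposite reversal, higher on noTC in M and lower in GM, was led by genes with low levels in GM. Hmga2, a chromatin architectural protein gene, was at 1.17 and 1.46 CPM on TC and 0.647 and 0.623 on noTC with GM-CSF, and at 39.5 and 42.2 on TC and 84.2 and 89.7 on noTC with M-CSF. Both M-noTC-LPS libraries were above both M-TC-LPS libraries, whereas both GM-noTC-LPS libraries were below both GM-TC-LPS libraries, and the test gave a log2 dish effect of -1.05 in GM and 1.09 in M, and an interaction of 2.14 ± 0.28 (SE, adjusted p = 1.01e-05). Col4a1, a basement membrane collagen gene, was at 2.71 and 1.46 CPM on TC and 0.381 and 0.806 on noTC with GM-CSF, and at 11.6 and 11.2 on TC and 19.3 and 17.9 on noTC with M-CSF. Its interaction was 2.48 ± 0.35 (SE, adjusted p = 2.99e-05), and it passed in all 15 alternatives (1.98 to 3.12). Low stromal genes moved with Col4a1 in GM, where GM-TC-LPS replicate 1 stood apart. Scaled by library size, Col1a1 was at 2.58 and 0.929 CPM on TC and 0.376 and 0.467 on noTC with GM-CSF. Col1a2 was at 3.66 and 0.743 against 0.414 and 0.503, and Sparc at 2.83 and 0.743 against 0.339 and 0.324. Cdkn1c, which encodes the CDK inhibitor p57, was at 7.43 and 6.94 CPM on TC and 3.47 and 3.04 on noTC with GM-CSF, and at 12.4 and 10.8 on TC and 17.4 and 16.6 on noTC with M-CSF. This is a log2 dish effect of -1.14 in GM and 0.55 in M, and an interaction of 1.69 ± 0.18 (SE, adjusted p = 5.71e-07). Cpe, a carboxypeptidase gene, was at 0.292 and 0.261 CPM on TC and 0.0762 and 0.0733 on noTC with GM-CSF, and at 2.16 and 2.16 on TC and 12.2 and 7.59 on noTC with M-CSF, so its GM-noTC-LPS libraries were under the floor of 3 counts and no fold is given for GM.

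**Figure D2:**
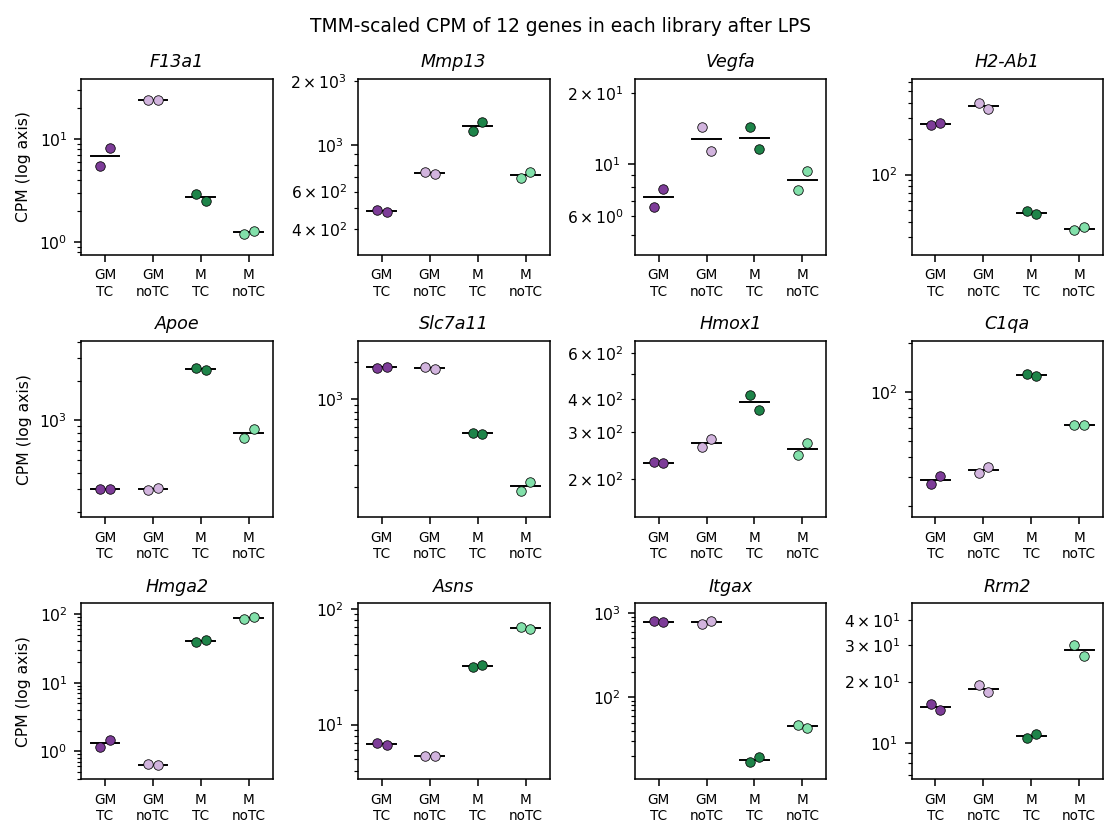
TMM-scaled CPM (log axis) of 12 genes in each of the 8 LPS libraries. Each point is 1 library and each bar the mean of the 2 libraries of a group. F13a1, Mmp13, Vegfa, H2-Ab1, Hmox1 and C1qa had higher levels on noTC in GM and lower levels on noTC in M, Apoe and Slc7a11 were nearly level between dishes in GM and lower on noTC in M, and Hmga2, Asns, Itgax and Rrm2 were higher on noTC in M.

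DNA replication genes had positive interactions only, where they passed the test. Of 62 tested DNA replication genes, 23 had a positive and 0 a negative interaction (37.1% against 4.98% of all genes for the positive direction), and the median interaction was 0.43 against 0.018 over all genes. In M, 42 of the 62 rose on noTC and 0 fell, and in GM 0 passed in either direction. The GM dish effect was still above 0 in 49 of the 62, with a median of 0.14, against 0.64 in M. Over all genes the median dish effects were 0.00048 in GM and 0.014 in M. With the DESeq2 test on the same libraries the counts were 14 positive and 0 negative. Rrm2, a subunit of the ribonucleotide reductase that makes deoxynucleotides, was at 15.6 and 14.5 CPM on TC and 19.2 and 17.7 on noTC with GM-CSF, and at 10.7 and 11.1 on TC and 30.1 and 26.7 on noTC with M-CSF. In M the noTC libraries were both above the TC libraries by more than the spread between replicates, and the interaction was 1.09 ± 0.13 (SE, adjusted p = 3.76e-06). Mcm7, a subunit of the replicative helicase, was at 10.1 and 12.9 CPM on TC and 11.8 and 11.7 on noTC with GM-CSF, and at 13.7 and 10.5 on TC and 25.8 and 22.0 on noTC with M-CSF. The GM libraries of both dishes overlapped and the M libraries did not, with a log2 dish effect of 0.02 in GM and 0.97 in M, and an interaction of 0.95 ± 0.18 (SE, adjusted p = 0.000705). Chaf1b, a subunit of the histone chaperone that loads nucleosomes on new DNA, was at 10.4 and 10.2 CPM on TC and 10.1 and 10.1 on noTC with GM-CSF, and at 5.92 and 4.88 on TC and 10.5 and 10.1 on noTC with M-CSF. Its M-noTC-LPS level thus came up to the level that GM had on either dish, with an interaction of 0.95 ± 0.17 (SE, adjusted p = 0.00053). The other helicase subunits Mcm2, Mcm3, Mcm4, Mcm5 and Mcm6 had interactions of 0.63, 0.58, 0.43, 0.77 and 0.70. E2f1, a transcription factor of the G1 to S transition, had 0.82 (adjusted p = 0.00109).

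Promoters of S phase genes are known for E2F binding sites, so the 250 bases before each RefSeq start site (build GRCm38.p6) were searched on both strands for TTTGGCGC, TTTCGCGC, TTTCCCGC and TTTGCCGC. A match was found in 7 of the 21 called replication genes that had a promoter window (33.3%) and in 7 of the 29 that were not called (24.1%), against 3.97% of 9439 tested genes and 1.86% of 32851 windows. Matches were thus found in called and in not called replication genes, and a match describes letters, not binding. The windows of the helicase genes Mcm5, Mcm6 and Mcm7 and of Hells, a chromatin remodeler, are shown with 1 match in capitals, 5′ to 3′ along the gene. Mcm5 and Mcm6 hold further matches that are not in capitals or not shown. They lie at chr8:75109336-75109383 (plus strand), chr1:128359788-128359835 (minus strand), chr5:138172021-138172068 (minus strand) and chr19:38930908-38930955 (plus strand).
Mcm5: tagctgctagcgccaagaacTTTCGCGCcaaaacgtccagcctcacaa
Mcm6: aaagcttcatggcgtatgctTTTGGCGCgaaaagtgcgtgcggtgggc
Mcm7: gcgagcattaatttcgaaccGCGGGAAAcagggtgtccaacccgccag
Hells: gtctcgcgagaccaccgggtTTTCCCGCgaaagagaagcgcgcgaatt

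Mitosis genes followed with smaller differences. Of 59 tested, 12 had a positive (20.3%) and 1 a negative interaction (1.69%), with a median of 0.28. Over all genes the shares were 4.98% and 7.59%. In M 51 rose on noTC and 1 fell, whereas in GM 8 rose and 0 fell. Ccna2, the cyclin of S and G2 phase, was at 10.6 and 10.7 CPM on TC and 12.6 and 11.6 on noTC with GM-CSF, and at 27.2 and 24.3 on TC and 49.5 and 45.2 on noTC with M-CSF, and its interaction was 0.69 ± 0.13 (SE, adjusted p = 0.000646). The exception Pttg1, which encodes securin, had -0.33 (adjusted p = 0.0149). With the DESeq2 test the mitosis counts were 5 positive and 1 negative. Among 19 G1 cyclins and CDK inhibitors, 4 were positive (21.1%) and 2 negative (10.5%). Ccnd1, the G1 cyclin that responds to growth factors, was at 5.51 and 3.47 CPM on TC and 8.61 and 8.65 on noTC with GM-CSF, and at 11.3 and 11.2 on TC and 42.4 and 35.3 on noTC with M-CSF. It rose on noTC with both growth factors, by 0.95 in GM and 1.79 in M, and the larger rise in M gave an interaction of 0.83 ± 0.20 (SE, adjusted p = 0.00714) that was lost without GM-TC-LPS replicate 1 (0.48, adjusted p = 0.204, with a range of 4.06e-05 to 0.204 over the alternatives). Myc, a transcription factor that promotes growth, went the other way, at 5.85 and 6.20 CPM on TC and 4.46 and 5.31 on noTC with GM-CSF, and at 14.9 and 14.2 on TC and 6.62 and 7.47 on noTC with M-CSF. Its interaction of -0.75 ± 0.19 (SE, adjusted p = 0.01) was lost without GM-noTC-LPS replicate 2 (-0.61, adjusted p = 0.0802, with a range of 0.00265 to 0.0802 over the alternatives).

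Genes of serine and one-carbon metabolism had positive interactions in all but 1 of those that passed. Of 23 serine and one-carbon metabolism genes, 9 were positive and 1 was negative (13 and 1 with library size alone). The shares were 39.1% and 4.35%, against 4.98% and 7.59% of all genes. The median was 0.33, and 18 rose on noTC in M. Phgdh, the first enzyme of serine synthesis, was at 30.5 and 28.7 CPM on TC and 22.2 and 22.9 on noTC with GM-CSF, and at 39.0 and 39.8 on TC and 60.6 and 57.4 on noTC with M-CSF. It fell on noTC in GM and rose in M, with a log2 dish effect of -0.39 in GM and 0.58 in M, and an interaction of 0.97 ± 0.10 (SE, adjusted p = 2.3e-07). Shmt2, the mitochondrial serine hydroxymethyltransferase, had an interaction of 0.71 ± 0.11 (SE, adjusted p = 6.98e-05) and Psat1, the aminotransferase of serine synthesis, had 0.62 (adjusted p = 9.64e-05). Asns, asparagine synthetase and a target of ATF4, is a member of the list that follows and was at 6.93 and 6.72 CPM on TC and 5.41 and 5.39 on noTC with GM-CSF, and at 31.7 and 32.7 on TC and 69.8 and 66.5 on noTC with M-CSF. The M libraries were separated by dish, the GM libraries were too but in the opposite order, and the test gave a log2 dish effect of -0.34 in GM and 1.08 in M, and an interaction of 1.42 ± 0.13 (SE, adjusted p = 8.28e-08), where the GM effect alone did not pass the adjusted threshold.

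The list of ATF4 and unfolded protein response genes held both directions. There were 7 positive and 8 negative genes of 32 (7 and 5 with library size alone). The TMM shares were 21.9% positive and 25% negative, both above the 4.98% and 7.59% of all genes. The median of -0.07 turned positive, to 0.013, with library size alone. The positive genes were Asns, the amino acid transporter Slc7a5 (0.63) and the tRNA synthetases Sars (0.53), Aars (0.43), Gars (0.43), Cars (0.41) and Nars (0.38). The negative genes were the cystine transporter Slc7a11 (-1.37), the endoplasmic reticulum genes Herpud1 (-0.67), Dnajb9 (-0.46), Manf (-0.33), Pdia6 (-0.32) and Hspa5 (-0.20), and the transcription factors Xbp1 (-0.42) and Atf4 (-0.25). Slc7a5 was lost without GM-TC-LPS replicate 2 (0.54, adjusted p = 0.054, with a range of 0.000875 to 0.054 over the alternatives).

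**Figure D3:**
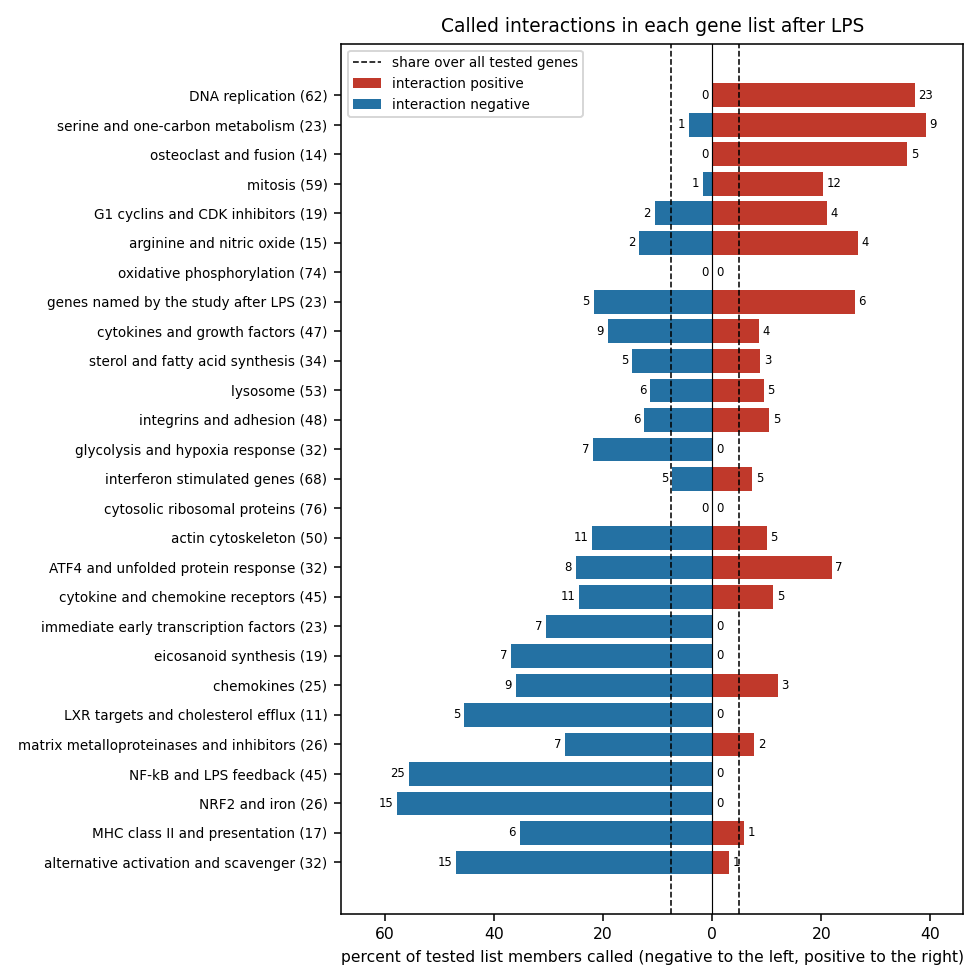
Percent of the tested members of each of 27 gene lists with a negative (blue, to the left) or positive (red, to the right) interaction at an adjusted p under 0.05. Numbers at the bars are counts, numbers in parentheses the tested members, and dashed lines the shares over all tested genes, 7.59% negative and 4.98% positive. DNA replication had 23 positive and 0 negative genes, and NF-kB and LPS feedback had 25 negative and 0 positive genes.

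Genes of NF-kB signalling and the feedback on it showed the reverse. Of 45 tested, 25 had a negative and 0 a positive interaction (55.6% against 7.59% of all genes), with a median of -0.27. In M 31 fell and 2 rose on noTC, and in GM 2 rose and 0 fell. With library size alone the counts were 17 negative and 3 positive. Irak3, a kinase-like inhibitor of TLR signalling, was at 119 and 129 CPM on TC and 127 and 131 on noTC with GM-CSF, and at 171 and 154 on TC and 96.0 and 103 on noTC with M-CSF. Only the M libraries were separated by dish, and the interaction was -0.77 ± 0.09 (SE, adjusted p = 9.86e-07). Smaller negative interactions were found for the NF-kB subunits Nfkb1 (-0.35), Nfkb2 (-0.26) and Relb (-0.30), for the inhibitors Nfkbia (-0.31) and Tnfaip3 (-0.20), for the LPS co-receptor Cd14 (-0.29) and for the adaptor Myd88 (-0.24). Among 23 immediate early transcription factors, 7 were negative (30.4%) and 0 positive (7 and 1 with library size alone). Fosl2, an AP-1 subunit, was at 166 and 169 CPM on TC and 169 and 177 on noTC with GM-CSF, and at 38.6 and 40.1 on TC and 20.1 and 18.4 on noTC with M-CSF. Its level in M fell on noTC and its GM libraries differed little, with an interaction of -1.08 ± 0.09 (SE, adjusted p = 1.67e-08). Ier3, an early response gene, had -0.98 ± 0.09 (SE, adjusted p = 1.01e-07).

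Cytokines and chemokines were mixed. Of 47 cytokines and growth factors, 4 were positive and 9 negative, and of 25 chemokines 3 were positive and 9 negative. The shares were 8.51% positive and 19.1% negative for the cytokines and 12% and 36% for the chemokines. Over all genes they were 4.98% and 7.59%. With library size alone the counts were 6 and 6 for the cytokines and 4 and 6 for the chemokines. Il1b, the precursor of IL-1β, was at 4802 and 5131 CPM on TC and 5144 and 5157 on noTC with GM-CSF, and at 1599 and 1742 on TC and 1028 and 1109 on noTC with M-CSF. GM held several times more than M on both dishes, the M level fell on noTC, and the interaction was -0.70 ± 0.07 (SE, adjusted p = 1.97e-07). The chemokine Cxcl3, which attracts neutrophils, was at 1549.5 and 1651 CPM on TC and 1973 and 1872 on noTC with GM-CSF, and at 204 and 198 on TC and 101 and 125 on noTC with M-CSF. It rose on noTC in GM and fell in M, and the interaction was -1.09 ± 0.09 (SE, adjusted p = 2.78e-08). Cx3cl1, fractalkine, had an interaction of -0.95 ± 0.12 (SE, adjusted p = 8.71e-06) and also reversed. Ccl2, the monocyte attractant, was at 953 and 930.4 CPM on TC and 879 and 886 on noTC with GM-CSF, and at 932 and 1006 on TC and 1207 and 1264 on noTC with M-CSF, and its interaction was positive at 0.44 ± 0.07 (SE, adjusted p = 4.95e-05). Tnfsf4, the ligand OX40L, had 0.85 ± 0.11 (SE, adjusted p = 8.87e-06).

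Among cytokines often read after LPS, the interaction of Tnf was small, that of Il6 did not pass and that of Ifnb1 was positive. Tnf was at 2586 and 2699 CPM on TC and 2677 and 2796 on noTC with GM-CSF, and at 5101 and 5117 on TC and 4332 and 4592 on noTC with M-CSF. The small drop in M gave an interaction of -0.25 ± 0.06 (SE, adjusted p = 0.0085), which was lost in 4 of 15 alternatives, among them the fits without GM-TC-LPS replicate 1 and without M-noTC-LPS replicate 1 (-0.21 and -0.21, adjusted p = 0.0718 and 0.0564, with a range of 0.000445 to 0.0718 over the alternatives). Ifnb1, interferon beta, was at 5.85 and 5.11 CPM on TC and 7.50 and 7.11 on noTC with GM-CSF, and at 4.90 and 5.76 on TC and 11.6 and 12.7 on noTC with M-CSF. Its interaction of 0.78 ± 0.19 (SE, adjusted p = 0.00884) was lost in 4 of 15 alternatives, among them the fits without GM-TC-LPS replicate 1 and without M-TC-LPS replicate 1 (0.68 and 0.66, adjusted p = 0.0587 and 0.0554, with a range of 0.0026 to 0.0835 over the alternatives). Il6 was at 1575 and 1677 CPM on TC and 1573 and 1508 on noTC with GM-CSF, and at 1071 and 1302 on TC and 1069 and 1243 on noTC with M-CSF. Its dish effects were -0.08 in GM and -0.04 in M, and the interaction of 0.04 ± 0.10 (SE, adjusted p = 0.845) did not pass. Of the 23 genes that the study names for LPS treated cells, 6 were positive, 5 negative and 12 did not pass (6 positive and 2 negative with library size alone), a list that was chosen on these samples.

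Among 45 cytokine and chemokine receptors, 5 were positive and 11 negative (6 and 8 with library size alone). The shares were 11.1% and 24.4%, against 4.98% and 7.59% of all genes. Il4ra, the receptor chain for IL-4 and IL-13, was at 52.6 and 53.8 CPM on TC and 54.1 and 52.7 on noTC with GM-CSF, and at 109 and 88.5 on TC and 42.7 and 38.4 on noTC with M-CSF. The GM libraries overlapped and those of M did not, with a log2 dish effect of 0.00 in GM and -1.28 in M, and an interaction of -1.29 ± 0.11 (SE, adjusted p = 3.33e-08). Csf1r, the receptor of M-CSF, had -0.42 (adjusted p = 0.000165), and Csf3r, that of G-CSF, had -0.72 (adjusted p = 0.00582). On the positive side was the chemokine receptor Ccr2, with 0.91 (adjusted p = 0.0428).

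Interferon stimulated genes had as many positive as negative interactions with TMM, a balance that rested on the scaling, and many moved in M. Of 68 tested, 5 were positive and 5 negative (7.35% each), whereas the counts were 11 positive and 1 negative with library size alone and 3 and 7 with DESeq2 size factors, and the median of -0.036 turned to 0.047 with library size alone. In M 29 fell and 8 rose on noTC, and in GM 2 fell and 2 rose. Over all genes, 13.3% fell and 12.3% rose in M, and 1.1% fell and 2.51% rose in GM. The count of all genes that fell in M was 1580 with TMM and 1010 with library size alone. Gbp4, a guanylate binding protein, was at 30.1 and 34.7 CPM on TC and 32.7 and 31.7 on noTC with GM-CSF, and at 45.9 and 51.3 on TC and 77.5 and 79.0 on noTC with M-CSF. It rose in M only, with an interaction of 0.70 ± 0.10 (SE, adjusted p = 5.05e-05). Ifit1, an antiviral RNA binding protein, was at 3004 and 3038 CPM on TC and 2870.4 and 3020.0 on noTC with GM-CSF, and at 3433 and 3563 on TC and 3577 and 3537 on noTC with M-CSF, and its interaction of 0.06 ± 0.06 (SE, adjusted p = 0.577) did not pass. Ifit2 had 0.32 ± 0.07 (SE, adjusted p = 0.00385), which missed the threshold in the DESeq2 test on all 16 libraries.

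MHC class II genes, which present antigen to T cells, rose on noTC in GM and fell in M where they passed. Of 17 tested genes, 6 were negative (35.3%) and 1 was positive (5.88%), against 7.59% and 4.98% of all genes, with a median of -0.42. In GM 8 rose and 0 fell on noTC, and in M 5 fell and 0 rose. H2-Ab1, a class II beta chain, was at 259.7 and 269 CPM on TC and 397 and 354 on noTC with GM-CSF, and at 49.4 and 46.3 on TC and 33.9 and 36.2 on noTC with M-CSF. The test gave a log2 dish effect of 0.51 in GM and -0.45 in M, and an interaction of -0.96 ± 0.09 (SE, adjusted p = 9.12e-08). H2-Eb1, H2-Aa and the invariant chain Cd74 also reversed, with interactions of -0.95, -0.77 and -0.72. Cd74 was at 1503 and 1604 CPM on TC and 1961 and 1816 on noTC with GM-CSF, and at 275 and 251 on TC and 192 and 197 on noTC with M-CSF. Summed dendritic cell markers moved with these genes in GM, at 1350 and 1460 CPM in GM-TC-LPS and 1890 and 1650 CPM in GM-noTC-LPS, against 48.4 to 80.0 CPM in M, and their part in the result was not tested. Most of this sum was the chemokines Ccl22 and Ccl17, at 1080 and 1180 CPM and at 194 and 211 CPM in GM-TC-LPS and at 1500 and 1330 CPM and at 307 and 238 CPM in GM-noTC-LPS. Most lineage markers of dendritic cells were also higher on noTC in GM. Zbtb46 was at 5.49 and 5.50 CPM on TC and 5.83 and 6.43 on noTC, and Clec9a at 8.02 and 7.36 against 8.32 and 8.45. Xcr1 was at 1.62 and 1.75 against 2.48 and 2.12. Dpp4 and Batf3 were higher on noTC without overlap too. Flt3 went the other way, at 0.249 and 0.409 against 0.151 and 0.216, and Cd209a overlapped between the dishes.

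The list of alternative activation and scavenger genes, which holds scavenger, lectin and Fc receptors, complement C1q and others such as the chemokine Ccl24 and the fatty acid binding proteins, had 15 negative and 1 positive of 32 genes and a median of -0.52. With library size alone the counts were 14 and 4. The TMM shares were 46.9% negative and 3.12% positive, against 7.59% and 4.98% of all genes. In M 17 fell and 3 rose on noTC. C1qa, a chain of C1q, was at 27.3 and 30.3 CPM on TC and 31.6 and 34.4 on noTC with GM-CSF, and at 128 and 125 on TC and 62.3 and 62.7 on noTC with M-CSF. The M libraries were lower on noTC and the GM libraries lay slightly higher on noTC, and the interaction was -1.22 ± 0.09 (SE, adjusted p = 6.53e-09). Stab1, the scavenger receptor stabilin-1, was mainly an M gene, at 9.77 and 9.56 CPM on TC and 11.2 and 11.3 on noTC with GM-CSF, and at 853 and 761 on TC and 425 and 429 on noTC with M-CSF, with an interaction of -1.14 ± 0.11 (SE, adjusted p = 1.06e-07). Marco, a scavenger receptor for bacteria, was at 24.7 and 30.4 CPM on TC and 28.0 and 22.5 on noTC with GM-CSF, and at 41.4 and 39.3 on TC and 16.2 and 14.1 on noTC with M-CSF. Its interaction was -1.28 ± 0.15 (SE, adjusted p = 1.49e-06). Mrc1, the mannose receptor, and Mertk, a receptor for apoptotic cells, had -0.57 and -0.47. The 1 positive member was Chil3 at 0.71, a GM gene that in M lay at 0.391% of its mean GM level on TC and 0.426% on noTC.

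**Figure D4:**
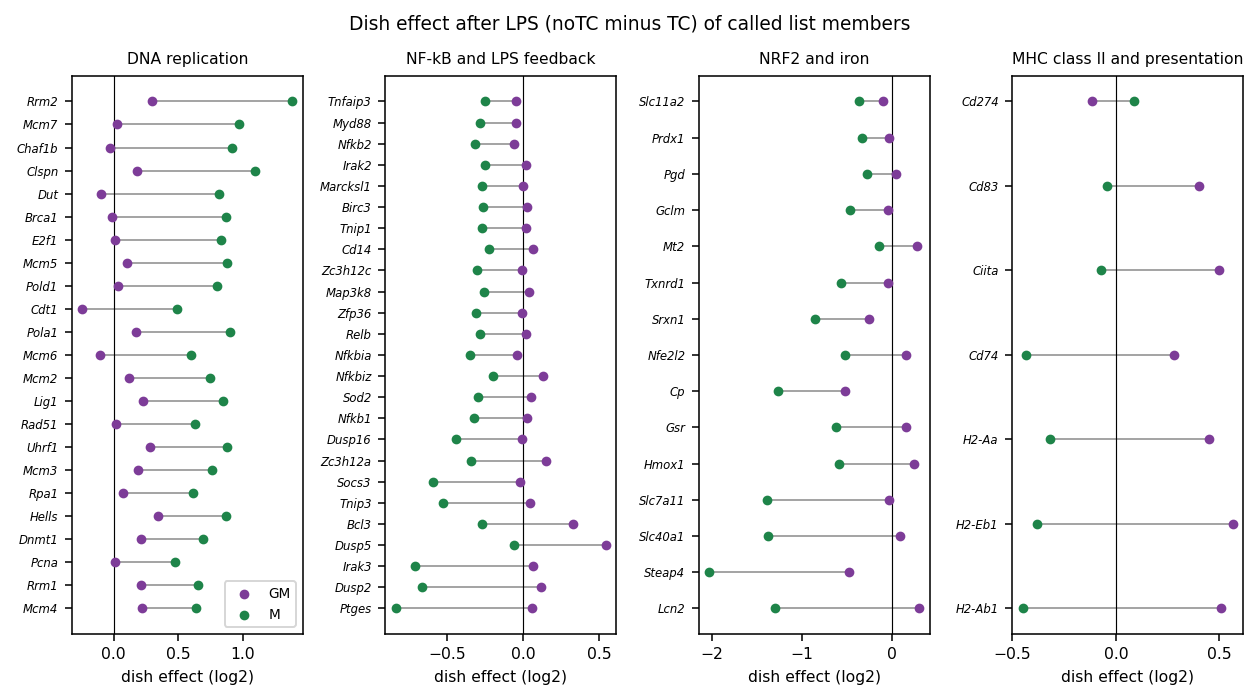
Log2 dish effect after LPS (noTC minus TC) in GM (purple) and M (green) of the called members of 4 gene lists, 1 gene per row, ordered by interaction. The M points of all 23 DNA replication genes lie to the right of the GM points. Those of all 25 NF-kB and all 15 NRF2 and iron genes lie to the left. The MHC class II genes H2-Ab1, H2-Eb1, H2-Aa and Cd74 have their points on opposite sides of 0. So does the class II transactivator Ciita, with an M point near 0, at -0.07.

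Genes of the oxidative stress response under NRF2 and of iron handling were negative in 15 and positive in 0 of 26 cases, with a median of -0.31. The negative share was 57.7%, against 7.59% of all genes. In M 18 fell and 1 rose on noTC, and in GM 2 fell and 2 rose. Slc7a11, which imports cystine for glutathione, was at 1792 and 1819 CPM on TC and 1804 and 1741 on noTC with GM-CSF, and at 539.9 and 533 on TC and 186 and 222 on noTC with M-CSF. The GM libraries overlapped while those of M were separated by far more than their spread, with a log2 dish effect of -0.03 in GM and -1.39 in M, and an interaction of -1.37 ± 0.08 (SE, adjusted p = 1.19e-10). Hmox1, heme oxygenase 1, was at 231 and 229.8 CPM on TC and 265 and 284 on noTC with GM-CSF, and at 415 and 365 on TC and 246 and 274 on noTC with M-CSF. It rose on noTC in GM and fell in M, and its interaction was -0.84 ± 0.09 (SE, adjusted p = 3.17e-07). Slc40a1, the iron exporter ferroportin, was at 13.5 and 11.7 CPM on TC and 13.5 and 13.3 on noTC with GM-CSF, and at 26.9 and 25.4 on TC and 10.4 and 9.72 on noTC with M-CSF. The interaction was -1.47 ± 0.14 (SE, adjusted p = 9.79e-08). Lcn2, which binds bacterial siderophores, had -1.61 ± 0.16 (SE, adjusted p = 2.08e-07). Nfe2l2, the gene of NRF2 itself, had -0.67 (adjusted p = 6.19e-07), and the glutathione genes Gsr and Gclm had -0.78 and -0.42.

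Cholesterol export genes were lower on noTC in M. Of 11 LXR targets and cholesterol efflux genes, 5 were negative and 0 positive (5 and 1 with library size alone), and in M 6 fell and 0 rose. The negative share was 45.5%, against 7.59% of all genes. Apoe, apolipoprotein E, was at 299.5 and 302 CPM on TC and 293 and 303 on noTC with GM-CSF, and at 2522 and 2408 on TC and 737 and 865 on noTC with M-CSF. The GM libraries of both dishes overlapped, and those of M were lower on noTC by much more than their spread, with a log2 dish effect of -0.01 in GM and -1.62 in M, and an interaction of -1.61 ± 0.08 (SE, adjusted p = 1.01e-11). Abca1, the cholesterol exporter, was at 279 and 301 CPM on TC and 285 and 292 on noTC with GM-CSF, and at 157 and 139 on TC and 84.7 and 67.1 on noTC with M-CSF. Its interaction was -0.96 ± 0.11 (SE, adjusted p = 1.03e-06). Apoc2 had -2.05 ± 0.15 (SE, adjusted p = 3.32e-09), but 79.5% of its exon bases are shared with another gene of the table, so its counts are uncertain. Of 19 eicosanoid synthesis genes, 7 were negative (36.8%) and 0 positive. Ptges, which makes prostaglandin E2, and Pla2g7, which breaks down platelet activating factor, had -0.90 ± 0.14 (SE, adjusted p = 8.06e-05) and -0.89 ± 0.08 (SE, adjusted p = 5.91e-08). Among 34 sterol and fatty acid synthesis genes, 3 were positive (8.82%) and 5 negative (14.7%), but 7 were positive and 1 negative with library size alone. The positive genes were the desaturases Scd1 (0.93), Scd2 (0.50) and Fads2 (0.58), of which Scd2 was lost without M-noTC-LPS replicate 1 (0.25, adjusted p = 0.126, with a range of 7.16e-07 to 0.211 over the alternatives), and the negative ones included Insig1 (-0.39) of the sterol feedback loop.

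Glycolysis and hypoxia genes rose on noTC with both growth factors, 14 of 32 in GM and 13 in M, where 5 fell. The interaction was negative in 7 and positive in 0 (5 and 1 with library size alone). The negative share was 21.9%, against 7.59% of all genes. Bnip3, a hypoxia induced mitophagy gene, was at 5.68 and 6.76 CPM on TC and 15.9 and 14.2 on noTC with GM-CSF, and at 7.84 and 7.42 on TC and 9.35 and 9.12 on noTC with M-CSF. It rose on noTC in GM, changed by 0.27 in M without passing the test, and had an interaction of -0.996 ± 0.17 (SE, adjusted p = 0.00035). Pfkfb3, which makes an activator of glycolysis, was at 47.1 and 43.2 CPM on TC and 39.3 and 41.9 on noTC with GM-CSF, and at 172 and 171 on TC and 89.2 and 90.5 on noTC with M-CSF. It fell on noTC in M, with an interaction of -0.78 ± 0.08 (SE, adjusted p = 8.09e-07).

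Arg1, arginase 1, had the most negative interaction of the named genes. It was at 15.9 and 30.5 CPM on TC and 167 and 133 on noTC with GM-CSF, and at 0.823 and 0.645 on TC and 0.621 and 0.482 on noTC with M-CSF. The rise on noTC was in GM only, by 2.68, while the M libraries held at most 0.823 CPM. The interaction of -3.10 ± 0.80 (SE, adjusted p = 0.011) was lost without M-TC-LPS replicate 1 (-2.90, adjusted p = 0.158, with a range of 1.68e-13 to 0.158 over the alternatives). Odc1, the first enzyme from ornithine to polyamines, had 0.55, and the arginine importer Slc7a1 had 0.46.

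Several genes that are abundant in GM rose on noTC in M. Itgax, which encodes CD11c, was at 802 and 783 CPM on TC and 737 and 814 on noTC with GM-CSF, and at 17.0 and 19.4 on TC and 47.4 and 43.5 on noTC with M-CSF. The GM libraries overlapped, and those of M were higher on noTC, with a log2 dish effect of -0.03 in GM and 1.33 in M, and an interaction of 1.36 ± 0.09 (SE, adjusted p = 2.1e-09). Mmp12, the macrophage elastase, was at 13901 and 13126 CPM on TC and 13738 and 14414 on noTC with GM-CSF, and at 436 and 479 on TC and 885 and 806 on noTC with M-CSF. Plau, the urokinase protease, had an interaction of 1.21 ± 0.13 (SE, adjusted p = 5.02e-07), against 0.83 ± 0.07 (SE, adjusted p = 3.33e-08) for Mmp12. Osteoclast and fusion genes had 5 positive and 0 negative of 14, which is 35.7% positive against 4.98% of all genes. Dcstamp, needed for cell fusion, was at 33.6 and 33.2 CPM on TC and 37.1 and 39.6 on noTC with GM-CSF, and at 0.980 and 1.06 on TC and 4.39 and 3.57 on noTC with M-CSF, and Atp6v0d2 and Ctsk, the proton pump subunit and the collagen degrading protease of osteoclasts, had 0.94 ± 0.08 (SE, adjusted p = 3.05e-08) and 0.94 ± 0.14 (SE, adjusted p = 8.74e-05). The rises from TC to noTC in M came to 3.75% of the mean GM level for Itgax, 3.1% for Mmp12, 8.77% for Dcstamp and 3.23% for Atp6v0d2. Of 124 tested genes that were at least 20-fold higher in untreated GM-TC than in M-TC, 18 had a positive and 13 a negative interaction. In M, 27 of the 124 rose and 9 fell on noTC. Over all genes, 4.98% had a positive and 7.59% a negative interaction, and in M 12.3% rose and 13.3% fell. Over these GM genes the rise in M had a median of 0.573% of the mean GM level and quartiles of -0.2% and 2.12%. The part of reads from other libraries in these values was not tested.

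Among the largest positive interactions were those of Fat3, a cadherin family gene, at 1.96 and 1.79 CPM on TC and 2.63 and 1.83 on noTC with GM-CSF, and at 0.666 and 0.691 on TC and 5.71 and 4.62 on noTC with M-CSF, with 2.67 ± 0.38 (SE, adjusted p = 2.8e-05), and Pkp2, plakophilin 2, at 7.68 and 7.54 CPM on TC and 7.20 and 8.13 on noTC with GM-CSF, and at 0.235 and 0.0921 on TC and 0.662 and 0.883 on noTC with M-CSF, with 2.15 ± 0.50 (SE, adjusted p = 0.00546). Atp13a4, a transport ATPase gene, was at 6.51 and 5.82 CPM on TC and 4.87 and 6.30 on noTC with GM-CSF, and at 0.00 and 0.0461 on TC and 0.580 and 0.642 on noTC with M-CSF. Its M-TC-LPS libraries were under 3 counts, so no fold is given. Pkp2 was also under 3 counts in M-TC-LPS replicate 2, so the size of its interaction is uncertain. On the negative side, Selp, P-selectin, was at 2.55 and 3.21 CPM on TC and 3.96 and 3.44 on noTC with GM-CSF, and at 6.39 and 4.93 on TC and 1.66 and 1.45 on noTC with M-CSF, with -2.23 ± 0.30 (SE, adjusted p = 1.29e-05). Gm20388 had replicates at 0 and 14.7 CPM in GM-TC-LPS, and all of its exon bases are shared with other genes of the table, so its interaction of -2.92 ± 0.96 (SE, adjusted p = 0.0492) is not read further.

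The other lists ranged from no call to negative shares above that of all genes. None of 74 oxidative phosphorylation genes and none of 76 cytosolic ribosomal protein genes had a called interaction in edgeR's test, 0 of each by the DESeq2 test, while library size alone called 4 and 2. Integrins and adhesion genes had 5 positive and 6 negative of 48, with Itgax on the positive side and on the negative side Itgal, the alpha chain of LFA-1, with -0.85 ± 0.08 (SE, adjusted p = 1.31e-07). With library size alone they had 8 and 5. Their TMM shares were 10.4% positive and 12.5% negative, against 4.98% and 7.59% of all genes. Actin cytoskeleton genes had 5 positive and 11 negative of 50, which is 22.0% negative against 7.59% of all genes (6 and 7 with library size alone). Lysosome genes had 5 positive (9.43%) and 6 negative (11.3%) of 53 (10 and 4 with library size alone). Matrix metalloproteinases and their inhibitors had 2 positive and 7 negative of 26, which is 26.9% negative.

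Markers of other cell types were measured as sums over each list. Stromal fibroblast markers (13 tested, 0 positive and 1 negative) summed to 53.4 to 72.3 CPM in GM and 20.6 to 34.5 CPM in M. Neutrophil markers (6 tested, 0 positive and 1 negative) summed to 542 and 564 CPM in GM-TC-LPS, 731 and 769 CPM in GM-noTC-LPS and 12.1 to 14.3 CPM in M. Nearly all of this sum in GM was Mmp8, at 519 and 534 CPM on TC and 695 and 742 on noTC, while Ngp and S100a8 overlapped between the dishes, at 9.81 and 13.7 CPM against 12.8 and 9.96 and at 4.82 and 6.13 CPM against 7.83 and 5.72. Eosinophil markers (3 tested, 1 positive and 0 negative) summed to 95.4 and 92.1 CPM in GM-TC-LPS and 74 and 76.6 CPM in GM-noTC-LPS. In M they summed to 1.13 to 3 CPM, and Prg3 was at 0. Nearly all of the GM sum was Siglecf, at 50.7 and 48.9 CPM on TC and 41.9 and 43 on noTC, and Ear6. Ear6 was at 43.8 and 42.3 CPM on TC and 30.9 and 32.3 on noTC, while Prg2 and Epx were at most 0.151 CPM. Endothelial markers (4 tested, 0 called) summed to 252 and 251 CPM in GM-TC-LPS, 205 and 214 CPM in GM-noTC-LPS and 168 to 185 CPM in M, with Cldn5 at 0. Most of this sum in GM was Vwf, at 220 and 218 CPM on TC and 167 and 178 on noTC. Kdr went the other way in GM, at 28.2 and 29.2 CPM on TC and 35.3 and 33 on noTC, and Cdh5 was at most 3.08 CPM. The part of these markers in the results was not tested. Lymphocyte markers summed to 7.8 to 30.7 CPM, with Cd3e, Cd3d and Ncr1 at 0 in all 8 libraries, and heart and skeletal muscle markers to at most 1.87 CPM.

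The same interaction was estimated without LPS, in 1 fit over all 16 libraries and 12514 genes. It was positive for 801 genes (6.4%) and negative for 603 (4.82%) in untreated cells, and in that fit for 464 (3.71%) and 860 (6.87%) after LPS. Of the genes called after LPS, 229 positive genes were also positive and 249 negative genes also negative without LPS, while 30 negative and 4 positive genes had the opposite sign. The change of the interaction with LPS, a three-way difference, passed for 77 positive (0.615%) and 250 negative genes (2%). Myc was among them. Scaled by library size, the untreated GM libraries lay between 26.7 and 35.8 CPM, whereas untreated M cells held 4.99 and 7.55 CPM on TC and up to 22.1 CPM on noTC. Its interaction was thus 1.37 without LPS and -0.77 after LPS, a difference of -2.14 (adjusted p = 3.08e-05). Mmp13 and Slc7a11 had three-way differences of -1.85 and -1.50, and Plau had -0.84 with a positive interaction in both states. When any of the 8 untreated libraries was left out, the three-way counts ranged from 44 to 331 positive and 143 to 484 negative and the untreated counts from 481 to 1104 positive and 370 to 1154 negative, and each of the 8 moved at least 1 of these by more than 1.5 times.

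**Figure D5:**
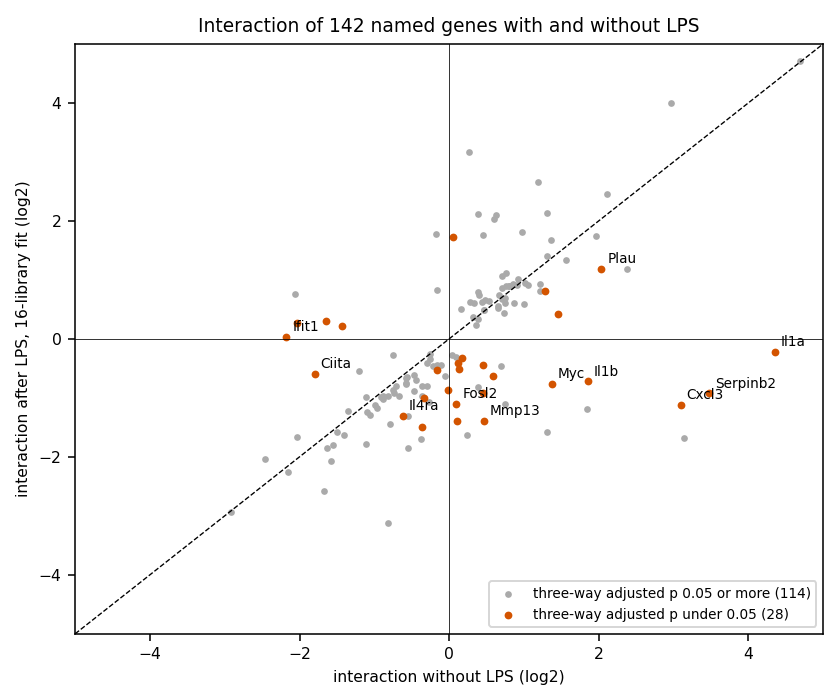
Interaction (log2) of 142 named genes without LPS on the horizontal axis and after LPS on the vertical axis, both from the fit over 16 libraries. Orange points are the 28 genes whose three-way difference had an adjusted p under 0.05, grey points the others, the dashed line marks equal interactions and 1 gene lies outside the axes. Myc lies below the line with a positive interaction without LPS and a negative one after LPS, and Il1a, Il1b, Cxcl3 and Serpinb2 lie far to the right.

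For Il1a, Il1b, Cxcl3, Serpinb2, Mmp13 and the Ifit genes the untreated values carry a limit. The untreated noTC libraries held a small amount of reads of genes that are abundant in LPS libraries, with a median share of 0.675% of the mean level of the other libraries over 15 genes in GM and 0.6% over 19 genes in M. Whether these reads came from other libraries or from a true low rise on noTC was not tested, and the subtraction lowers both. After subtraction of these shares, 19 of the 28 named three-way differences still passed and 9 did not. The untreated interaction of Mmp13 turned from 0.46 to -0.19 (adjusted p = 0.544) and its three-way difference from -1.85 to -1.20 (adjusted p = 0.000667), whereas the untreated interaction of Myc was 1.37 in both.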

How the data were processed

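RNA-seq libraries of mouse BMDMs were analysed from a gene table of expected counts that the authors deposited. Per the methods and the submitters' processing notes, reads were trimmed with fastp 0.18.0, aligned with HISAT2 and quantified with RSEM, and use of strand is not stated. The genome build is not given in the sources used here. Expected counts were rounded (6.56% to 8.19% of values per library were not whole).

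Groups came from the sample titles. The 8 LPS libraries were fitted with 1 term per group in edgeR 4.0.16 (R 4.3.3), after its expression filter by group and TMM scaling. The interaction and both dish effects were tested with the quasi-likelihood test and BH adjustment over all 11864 genes. Same-numbered libraries are not stated to share a mouse, so p-values measure the spread between these libraries. A group of 2 against 2 cannot reach 0.05 in an exact permutation test. Replicates differed by more than sampling noise (chi-square per degree of freedom 3.04 to 5.46). Alternatives were DESeq2 1.42.0, other scalings, no filter, all 16 libraries, a replicate block, fold thresholds and each library left out.

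Named genes were the 12 with the largest interaction in each direction at 5 CPM or more and without overlap, the 10 clearest reversals, up to 5 per list and those named by the study. The members and lists were chosen with earlier results of these data known. In simulated data the interaction test recovered 55 of 67 genes at 1.5-fold and 66 of 67 at 2-fold, with 7 of 11664 unchanged genes called. The changed genes there had a mean of at least 5 CPM, and the spread of each gene followed the trend with level. The recovery thus does not cover genes of lower level, and neither rate covers genes with a larger spread. Some genes that met the rule for named genes are not reported here.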

Additional observations from a re-analysis of the deposited data

Results flagged for a closer look

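The dish effect after LPS differed between the growth factors for 591 genes in the positive and 900 genes in the negative direction, and it reversed for 301. In untreated cells the difference passed for 801 and 603 genes, and it changed with LPS for 77 genes in the positive and 250 in the negative direction.

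Among the named genes, the interaction after LPS differed from that without LPS for 28, and the values below are three-way differences on the log2 scale from the fit over 16 libraries. Those of inflammatory genes were -4.58 for Il1a, -4.40 for Serpinb2, -4.21 for Cxcl3, -2.57 for Il1b and -1.03 for Ccl2. In untreated cells, Il1a was at 0.609 and 0.521 CPM in M-TC and 20.7 and 14.2 CPM in M-noTC, against 66.0 to 104.6 CPM in GM, scaled by library size. A constant fraction of the mean level of other libraries was then taken off the untreated noTC libraries. Of these 5, only Ccl2 still passed, at -0.80 (adjusted p = 0.0479). This step would also take off a true low rise on noTC, so the origin of the lost differences was not tested.

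Interferon stimulated genes had positive differences, of 2.21 for Ifit1, 2.30 for Ifit1bl1, 1.94 for Ifit2 and 1.65 for Ifit3. Untreated, Ifit1 was at 5.65 and 5.67 CPM in GM-TC and 24.2 and 24.7 CPM in GM-noTC, and with the subtraction its difference was 0.54 (adjusted p = 0.0328), while the other 3 no longer passed.

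Growth and early response genes had negative differences, of -2.14 for Myc, -1.21 for Fosl2, -1.22 for Dusp5 and -0.67 for Ier3. Transporters and stress genes had -1.50 for Slc7a11, -1.12 for Slc40a1, -0.85 for Hmox1 and -0.64 for Slc2a1. Proteases had -1.85 for Mmp13, -0.84 for Plau, -0.48 for Mmp12 and -0.37 for Ctsc, of which Mmp12 and Ctsc no longer passed with the subtraction and Mmp13 was at -1.20 (adjusted p = 0.000667). Lipid and receptor genes had -1.37 for Ptges, -0.90 for Pla2g4a, -0.70 for Il4ra, -0.53 for Insig1 and -0.49 for Sc5d. The class II transactivator Ciita had 1.21 and Zfp961 had 1.68.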

How the results depend on the processing

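Without TMM, by library size alone, the interaction was positive for 1039 and negative for 557 genes, the M dish effect was lower for 1010 genes, and the three-way counts were 157 positive and 113 negative. Without the expression filter the three-way counts were 137 and 378. DESeq2 on the 8 libraries gave 318 positive interactions and 887 genes higher on noTC in M, and on 16 libraries 327 positive interactions and 73 genes lower on noTC in GM. With a fold above 1.5 and an unadjusted p under 0.05, the counts were 337 negative interactions, 153 reversals, 196 genes higher on noTC in GM, and 602 higher and 284 lower in M. With a fold above 2 they were 182 positive and 136 negative interactions, 66 reversals, 68 higher and 57 lower in GM, and 219 higher and 106 lower in M.

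Leaving out 1 library at a time gave 343 to 568 positive interactions, 569 to 884 negative interactions, 181 to 326 reversals, 114 to 336 genes higher on noTC in GM, 34 to 155 genes lower on noTC in GM, 901 to 1450 genes higher on noTC in M, 977 to 1609 genes lower on noTC in M, 481 to 1104 untreated positive interactions, 370 to 1154 untreated negative interactions, 44 to 331 positive three-way differences and 143 to 484 negative three-way differences.

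The replicate block gave 577 positive and 894 negative interactions and 312 reversals. Deviations of same-numbered libraries correlated between -0.0954 and 0.0547. A shared effect that is small against the noise of the libraries would give such values too, so pairing stays unknown. Subtraction of a share of the mean level of other libraries, chosen after seeing the data, gave 749 and 582 untreated interactions and 60 and 228 three-way differences. Of 153 named genes, 141 were called, and 93 of these passed with the same sign in every alternative in which they were tested. For Mmp27 and Atp13a4 that was 14 of the 15. None of the 141 changed sign, while Col1a1, Il6, Irf7 and St3gal6, which had not passed, did. With a library left out, the lone library of its group is assumed to vary like the others. With 2 libraries a group, 1.5-fold differences are at the edge of what the test recovers. Genes with both libraries of a group under the floor are read only as levels. The direction of the ATF4, actin, ribosomal, glycolysis, integrin, interferon and lysosome medians turned with the scaling.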
